A study of Mus musculus with 46 samples.

Results

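Gpr17, Cspg4, Pdgfra, Bmp4, Olig1, Olig2 and Sox10 were followed as the oligodendrocyte precursor genes of the mouse nucleus accumbens, part of the ventral striatum. They were chosen by gene symbol, and all 7 were found among the 25801 genes of the authors' deposited table of comparisons. Per-array log2 values were at hand for 6 of them, all but Pdgfra, out of 16253 genes with such values. All 6 exceeded the filter on dim genes on 46 of 46 arrays and were tested with 9596 genes in all.

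RNA of 46 male mice was measured on Affymetrix MTA 1.0 arrays, 1 array per mouse, to ask how nicotine and its withdrawal change expression in 2 inbred strains. Every mouse, C57BL/6J or DBA/2J, had an osmotic minipump under the skin for 14 days, filled with saline or with nicotine delivered at 24 mg/kg/day. In the chronic groups the pump was still in place at death, and in the withdrawal groups, saline mice included, it had been taken out 24 h before. The C57BL/6J groups held 6 chronic saline, 5 chronic nicotine, 6 withdrawal saline and 6 withdrawal nicotine mice, and the DBA/2J groups held 6, 6, 6 and 5 in the same order. The labels name neither age nor batch, so no batch was tested. The arrays had medians from 6.52 to 6.63 on the log2 scale, and each correlated with the rest of its group at 0.993 or above.

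Oligodendrocyte precursors are the dividing glia that persist in the adult brain and give rise to the cells that wrap axons in myelin. They carry the receptor for platelet-derived growth factor and the proteoglycan NG2, the products of Pdgfra and Cspg4. When they commit to differentiation they switch on the receptor Gpr17 for a time, and the transcription factors Olig1, Olig2 and Sox10 act throughout the lineage. Bone morphogenetic proteins, of which Bmp4 is one, hold differentiation back. Several of these genes are not private to the precursors: Cspg4 is also made by pericytes and smooth muscle, Pdgfra and Bmp4 by fibroblasts of the meninges, and Sox10, Olig1 and Olig2 by mature oligodendrocytes.

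The coordinates in the authors' table overlapped the same genes of the RefSeq annotation of GRCm38.p6, while the table's own build is not given in the sources used here. Cspg4 was listed on chromosome 9 from 56865104 to 56899870, and Pdgfra on chromosome 5 from 75152291 to 75198204. Bmp4 lay on chromosome 14 from 46383520 to 46390669 and Sox10 on chromosome 15 from 79154909 to 79164506. Olig2 (91225550 to 91228677) and Olig1 (91269769 to 91271939) are neighbours on chromosome 16, 41091 bases apart. Each value summarised the probes of a whole transcript, 30 for Gpr17, 130 for Cspg4, 72 for Bmp4, 29 for Olig1, 30 for Olig2, 80 for Sox10 and 306 for Pdgfra. In RefSeq, Gpr17 overlaps Lims2, Olig2 overlaps the non-coding Gm52261, Bmp4 overlaps Gm15217 and Gm15222, and Pdgfra overlaps Mir7025, and whether the probes separate these was not analysed.

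The RefSeq promoter table of GRCm38.p6 held 4 of the 7 genes. Those of Olig2, whose level differed between the strains, and of Bmp4, which varied with genes of another tissue, are shown from 250 bases before to 50 after the transcription start, read along the gene. Capitals mark letters that match, on either strand, TATAAA (the TATA box), CCAAT (the box of that name), CANNTG (the E-box, bound by helix-loop-helix factors such as the Olig proteins), ACAAAG or the related motif ACAATG (both core letters of SOX sites). No 2 matches overlapped in the windows shown.
Olig2 promoter, chr16:91225300-91225599, plus strand: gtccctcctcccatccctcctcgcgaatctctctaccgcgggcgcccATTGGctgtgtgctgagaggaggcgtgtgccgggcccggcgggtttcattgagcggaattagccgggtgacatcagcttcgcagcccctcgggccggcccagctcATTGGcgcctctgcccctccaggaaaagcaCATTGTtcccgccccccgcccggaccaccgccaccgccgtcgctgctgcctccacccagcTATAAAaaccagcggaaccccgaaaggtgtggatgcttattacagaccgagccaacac
Bmp4 promoter, chr14:46390620-46390919, minus strand: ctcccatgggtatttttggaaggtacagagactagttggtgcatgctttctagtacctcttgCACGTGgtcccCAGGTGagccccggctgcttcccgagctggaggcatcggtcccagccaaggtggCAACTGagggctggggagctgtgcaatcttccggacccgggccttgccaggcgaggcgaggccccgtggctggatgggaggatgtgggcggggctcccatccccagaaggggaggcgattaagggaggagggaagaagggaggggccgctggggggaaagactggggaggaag
Olig2 held 1 match to TATAAA, 2 CCAAT boxes and 1 match to ACAATG, with no E-box. The TATAAA letters begin at -8 from the annotated start, and whether they serve as a TATA box was not tested. Bmp4 held 3 E-boxes and none of the others. Of 32851 mouse promoters of this length, 13.6% held the TATA box, 37.4% the CCAAT box, 72.3% an E-box, 18.7% the first SOX motif and 12.6% the second, and a match describes the letters only.

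Strain was the comparison in which members passed the test. Olig2 and Sox10 were lower in DBA/2J than in C57BL/6J among saline mice, and Sox10 was lower among nicotine mice too. Both encode transcription factors of the lineage: Olig2 is needed for its specification and Sox10 drives the myelin genes. Of the 6 genes tested, 2 were lower and 0 higher in saline DBA/2J mice, where 31.8% of the 9596 genes passed in either direction and 19.4% passed as lower. In nicotine mice 1 of 6 was lower, against 26.2% in either direction and 10.8% lower. The strains therefore differed in a large share of all genes, and the members' counts are to be read against that. Beside the split as deposited, in which 1193 genes were higher and 1859 lower among saline mice, centring each array on its median gave 666 higher and 2665 lower.

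**Figure D1:**
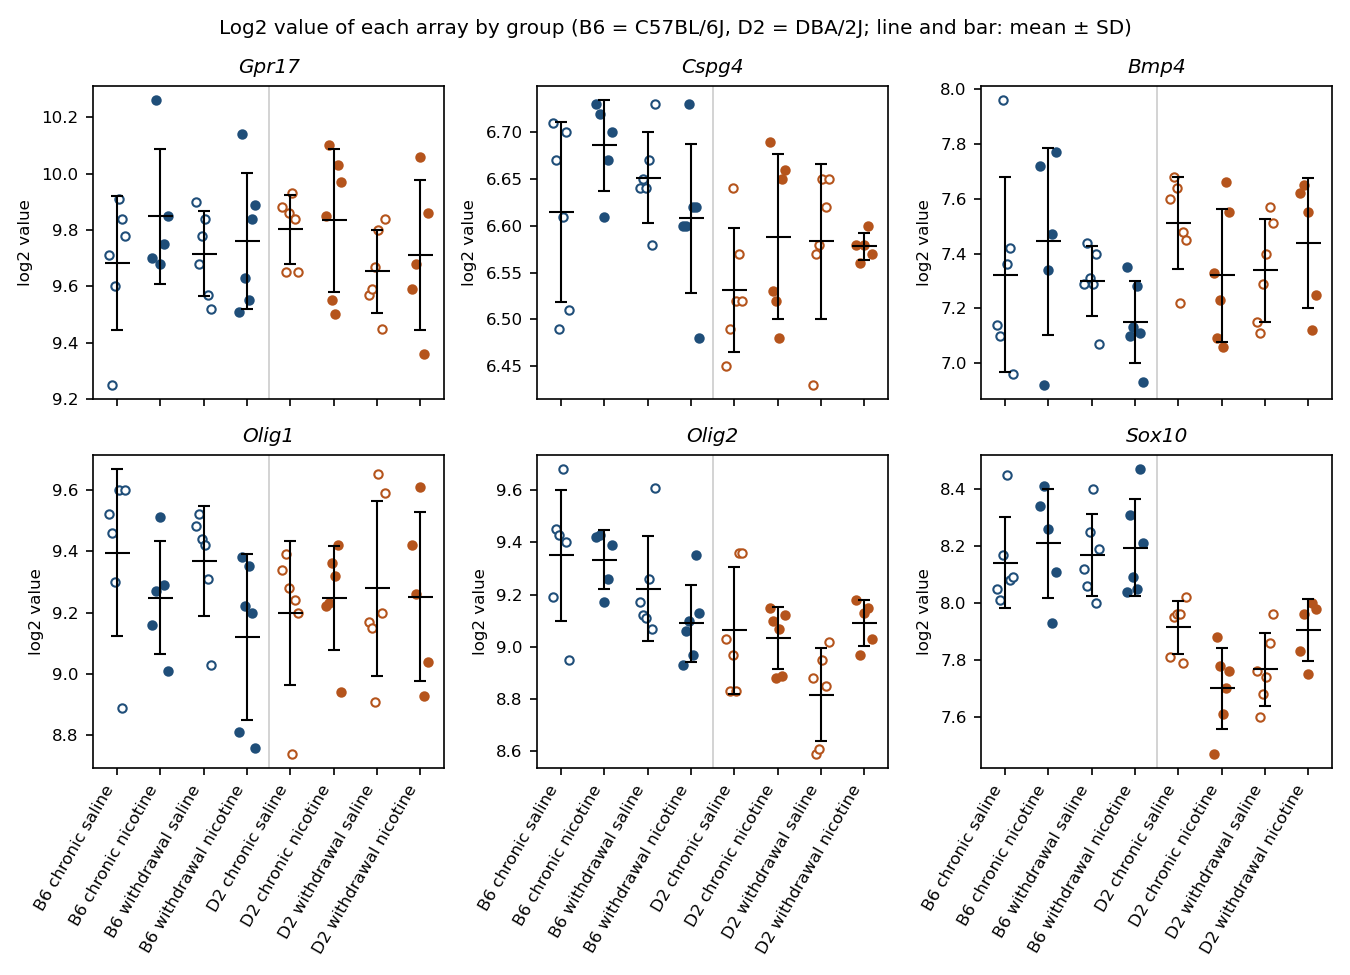
Log2 value of every array for the 6 genes with per-array values, with groups on the x axis (open points saline, filled points nicotine, blue C57BL/6J, orange DBA/2J) and bars for mean ± SD. The 23 DBA/2J mice stood below most C57BL/6J mice for Sox10, while the nicotine and saline points of every gene overlapped within each strain and phase.

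Sox10 ranged from 8.00 to 8.45 in the 12 C57BL/6J saline mice (median 8.10) and from 7.60 to 8.02 in the 12 DBA/2J saline mice (median 7.84). The groups met only at their edge, and 12 of 12 DBA/2J mice lay under the C57BL/6J mean. The log2 difference was -0.32 (SE 0.06, 8.16 against 7.84), or 1.24-fold, with adjusted p = 2.98e-05 from limma over all genes. Among nicotine mice Sox10 ranged from 7.93 to 8.47 in C57BL/6J (median 8.21, n = 11) and from 7.47 to 8.00 in DBA/2J (median 7.78, n = 11). Again 11 of 11 DBA/2J mice lay under the other strain's mean, and the difference was -0.40 (SE 0.06, limma adjusted p = 1.05e-06). By group, the 4 C57BL/6J means of Sox10 lay between 8.14 and 8.21, closer than the SD of 0.14 to 0.19 within them. The DBA/2J means followed at 7.91 in chronic saline, 7.90 in withdrawal nicotine, 7.77 in withdrawal saline and 7.70 in chronic nicotine, with SDs from 0.09 to 0.14. In tissue RNA, fewer cells of a type and less RNA per cell cannot be told apart.

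Olig2 ranged from 8.95 to 9.68 in C57BL/6J saline mice (median 9.23, n = 12) and from 8.59 to 9.36 in DBA/2J saline mice (median 8.92, n = 12). These ranges overlapped widely, although 10 of 12 DBA/2J mice were under the C57BL/6J mean. The difference was -0.35 (SE 0.07, 9.29 against 8.94), 1.27-fold, with limma adjusted p = 0.000169. Among nicotine mice Olig2 ranged from 8.93 to 9.43 (median 9.17, n = 11) in C57BL/6J and from 8.88 to 9.18 (median 9.10, n = 11) in DBA/2J, and the difference of -0.15 (SE 0.07) gave limma adjusted p = 0.151. Fitted on the nicotine groups alone, that value passed with adjusted p = 0.0371. The change of the strain difference with nicotine, 0.20 (SE 0.10), did not pass itself (limma adjusted p = 0.417). By group, the means of Olig2 were 9.35 and 9.33 in chronic C57BL/6J saline and nicotine mice, 9.22 and 9.09 in withdrawn ones, 9.09, 9.07 and 9.04 in 3 DBA/2J groups and 8.82 in DBA/2J withdrawal saline, and neighbours in this order down to 9.04 lay within an SD of each other (0.09 to 0.25).

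The other members did not pass. Olig1, the neighbour and close relative of Olig2, ranged from 8.89 to 9.60 in C57BL/6J and from 8.74 to 9.65 in DBA/2J saline mice, with a difference of -0.14 (SE 0.09, limma adjusted p = 0.257). Among nicotine mice its difference was 0.07 (SE 0.10). For Gpr17 the strain difference was 0.03 (95% interval -0.14 to 0.20) under saline and -0.03 (-0.21 to 0.14) under nicotine. For Bmp4, the differences of 0.11 (-0.08 to 0.30) and 0.08 (-0.12 to 0.28) did not pass either.

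Cspg4, the dimmest member tested, stood at the threshold. Its 12 C57BL/6J saline mice ranged from 6.49 to 6.73 (median 6.65) and its 12 DBA/2J saline mice from 6.43 to 6.65 (median 6.57), and 9 of 12 of the latter were under the C57BL/6J mean. The difference of -0.08 (SE 0.03) gave limma adjusted p = 0.0501, and among nicotine mice -0.06 (SE 0.03) gave 0.159. Other settings moved the saline value to both sides of the threshold, with adjusted p from 0.00358 with cyclic loess to 0.157 with myelin and cortical means as covariates. It was -0.13 with arrays centred on the median (adjusted p = 0.00528), and 8 of 24 repeats that each left out 1 mouse passed.

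**Figure D2:**
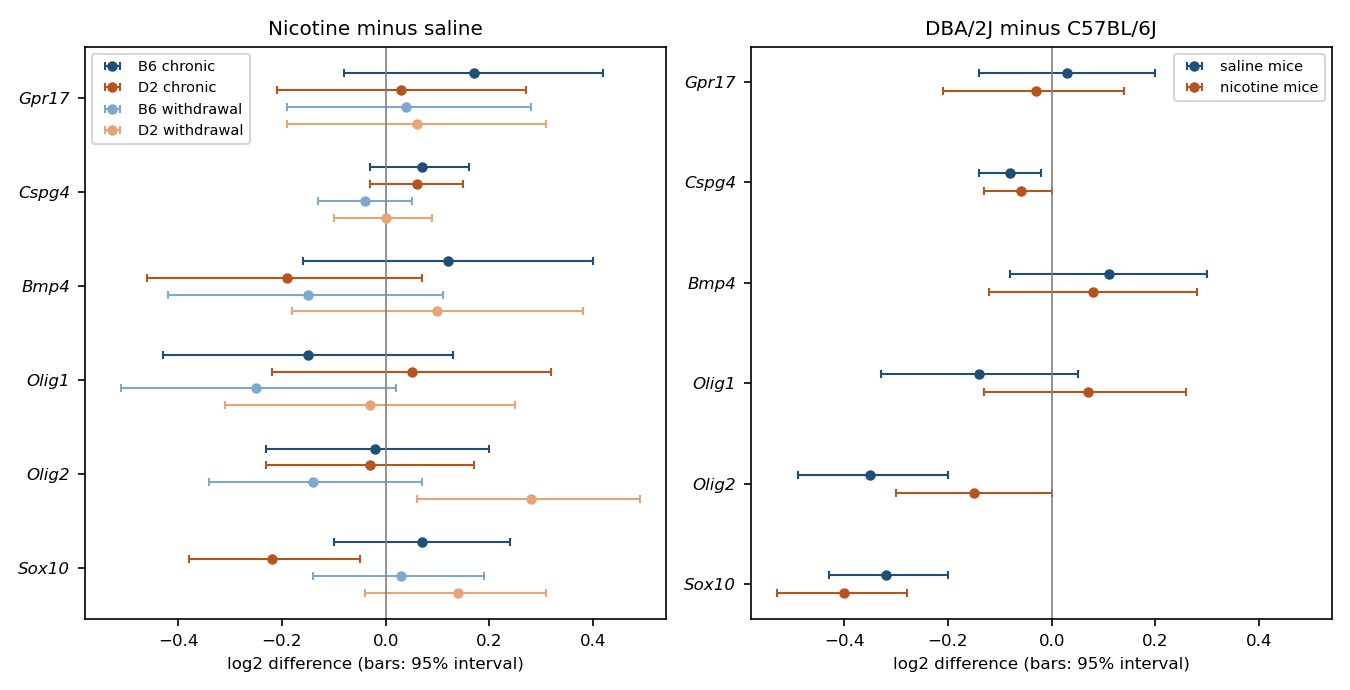
Log2 differences of the 6 genes with 95% intervals from limma, nicotine minus saline on the left in 4 colours for strain and phase, and DBA/2J minus C57BL/6J on the right for saline and nicotine mice. The strain intervals of Sox10 lie below 0 in both drug groups. Those of Olig2 and Cspg4 lie below 0 among saline mice, Cspg4 without passing the adjustment. On the left the intervals of Sox10 in chronic DBA/2J and of Olig2 in withdrawn DBA/2J leave 0 without passing the adjustment.

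Genes of the same lineage were set beside these values. Of 19 tested genes of myelin and mature oligodendrocytes, 10 were lower and 0 higher in DBA/2J saline mice, where 19.4% of all genes were lower and 12.4% higher, with a median difference of -0.21 against -0.02 over all genes. Among them were Mobp, a myelin structural protein (-0.82, limma adjusted p = 1.3e-08), the protease Klk6 (-0.55, 2.84e-05), the oligodendrocyte membrane protein Opalin (-0.49, 0.000121) and the plasmolipin gene Pllp (-0.43, 0.000818). In nicotine mice 8 of 19 were lower and 0 higher, against 10.8% lower and 15.4% higher over all genes, with a median of -0.23 against 0.02. Lists of other cells held strain calls among saline mice too: 4 of 10 striatal spiny neuron genes were lower and 0 higher, and of 9 astrocyte genes 2 were lower and 2 higher. The mean of the myelin genes ranged from 10.28 to 10.92 in C57BL/6J saline mice and from 10.16 to 10.56 in DBA/2J saline mice. With that mean as a covariate the saline difference of Sox10 was -0.16 (SE 0.05, limma adjusted p = 0.0076) and that of Olig2 was -0.24 (SE 0.08, 0.0147). Under nicotine they were -0.25 (0.000166) and -0.04 (0.79). This alternative was chosen after the data were seen.

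Among 15 other precursor genes, 2 were higher and 3 lower in DBA/2J saline mice, a share near the 31.8% of all genes called in either direction, with a median of -0.03 against -0.02. Cacng4 was at -0.43 (limma adjusted p = 4.79e-07), the cadherin Pcdh15 at 0.20 (0.00253) and the endocytic adaptor Epn2 at -0.19 (0.000113). Of 12 genes of committed and newly formed oligodendrocytes, Gpr17 and Bmp4 among them, 4 were lower and 0 higher, again near the 31.8% called over all genes (19.4% lower). They were the transcription factor Zfp488 (-0.29), Samd4b (-0.25), Cnksr3 (-0.24) and Cemip2 (-0.12). Of 17 other transcription factors and partners of the lineage 6 were lower and 1 higher, against 19.4% and 12.4% of all genes. Etv5 (-0.64) and Id4, an inhibitor of helix-loop-helix factors (-0.58), were among those lower, as was Zfp488.

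Of 13 tested genes of BMP signalling, 3 were lower and 1 higher in DBA/2J saline mice, near the 31.8% called over all genes: Id4, the signal transducers Smad5 (-0.17) and Smad4 (-0.13), and the inhibitory Smad6 (0.18). Of 6 genes of PDGF signalling, the receptor Pdgfrb (-0.27) and the ligand Pdgfb (-0.20) were lower and the kinase subunit Pik3r1 (0.15) was higher. Over all genes 19.4% were lower and 12.4% higher, and a list of 6 is too short to set apart from that. The single tested gene of the list around Gpr17's reported ligands did not pass. The probes' match to the DBA/2J sequence was not analysed here.

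Nicotine against saline gave no call for any member. In each of the 4 comparisons within strain and phase 0 of 6 genes passed, as did 0% of the 9596 genes tested with limma. Nor did any member separate nicotine from saline mice without overlap, which 0.208% of all genes did in chronic C57BL/6J, 0.156% in chronic DBA/2J and withdrawn C57BL/6J and 0.542% in withdrawn DBA/2J. By log2 value, Sox10 was the single member of 6 at an unadjusted p under 0.05 in chronic DBA/2J and Olig2 the single one in withdrawn DBA/2J. Of all genes, 8% and 5.45% reached that level there. In both C57BL/6J comparisons there were 0 of 6 by log2 value (4.68% and 2.99% of all genes). By the authors' S-scores, explained with Pdgfra below, Olig2 and Olig1 reached that level in withdrawn C57BL/6J. Their mean scores were -0.81 (limma unadjusted p = 0.00217) and -1.42 (0.0354), and neither passed the adjustment. Of the 25801 genes scored, 2.96% reached it there. In DBA/2J the scores reached it for Sox10 in chronic mice (5.64% of genes scored) and Olig2 in withdrawn mice (6.43%). The 95% intervals of the 6 genes reached from 0.09 to 0.28 on either side of the estimate, the narrowest for Cspg4.

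Sox10 in chronic DBA/2J ranged from 7.79 to 8.02 (median 7.95) in 6 saline mice and from 7.47 to 7.88 (median 7.73) in 6 nicotine mice. The groups overlapped, and 6 of 6 nicotine mice were under the saline mean. The difference was -0.22 (95% interval -0.38 to -0.05) with unadjusted p = 0.0121 and limma adjusted p = 0.607. In chronic C57BL/6J the 5 nicotine mice stood at 8.34, 8.41, 8.26, 7.93 and 8.11 and the saline mice between 8.01 and 8.45 (median 8.08), a difference of 0.07. The strain difference of the chronic response of Sox10, -0.28 (-0.52 to -0.04), had unadjusted p = 0.0213 and limma adjusted p = 0.475. Myelin genes of the same lineage and genes of other cells had values to set beside Sox10 in chronic DBA/2J. Of 19 myelin genes, 18 had negative differences (median -0.18, 0 passing), with Trf at -0.40, Mobp at -0.36 and Plekhh1 at -0.22. The mean of the myelin genes ranged from 10.23 to 10.52 under saline and from 10.03 to 10.43 under nicotine. All 8 markers of cortical excitatory neurons had negative differences (median -0.35; range of their mean 9.96 to 10.66 under saline, 9.27 to 10.64 under nicotine), and all 10 markers of striatal spiny neurons had positive ones (median 0.23; 12.64 to 13.16 and 12.90 to 13.46). Their part in the Sox10 value was not tested.

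Olig2 in withdrawn DBA/2J stood at 9.18, 8.97, 9.13, 9.15 and 9.03 in the 5 nicotine mice and from 8.59 to 9.02 (median 8.87) in the 6 saline mice. The groups overlapped through 1 nicotine mouse, and 5 of 5 nicotine mice were above the saline mean. The difference was 0.28 (95% interval 0.06 to 0.49) with unadjusted p = 0.0128 and limma adjusted p = 0.857. In withdrawn C57BL/6J Olig2 ranged from 9.07 to 9.61 (median 9.14) in saline mice and from 8.93 to 9.35 (median 9.08) in nicotine mice, a difference of -0.14 (-0.34 to 0.07). The strain difference of these responses, 0.41 (0.12 to 0.71), had unadjusted p = 0.00751 and limma adjusted p = 0.655. By S-score, 5 of 5 withdrawn DBA/2J mice were positive for Olig2 (mean 1.14, limma adjusted p = 0.542). In withdrawn C57BL/6J 0 of 6 were (mean -0.81). The strain difference of these means was 1.95 (1.25 to 2.65), with limma unadjusted p = 9.57e-06 and adjusted p = 0.247. Mice of a group share 1 saline reference in these scores, and saline mice were assumed to vary like nicotine mice. Between the 2 saline groups of DBA/2J, Olig2 had a withdrawal minus chronic value of -0.25 (unadjusted p = 0.0183, limma adjusted p = 1), and withdrawal saline had the lowest mean of the 8 groups. All 12 genes of the committed list had positive differences in withdrawn DBA/2J (median 0.08 against 0.02 over all genes), with 0 passing and the smallest p at Cemip2 (0.08), Samd4b (0.15), Lims2 (0.13) and Fyn (0.08). All 8 cortical neuron markers (median 0.19) and all 10 striatal spiny neuron markers (median 0.08) had positive values there too, and their part in the Olig2 value was not tested.

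Gpr17, the receptor of the committed stage, is listed on chromosome 18 from 31942997 to 31949636. It stood at 9.70, 10.26, 9.68, 9.75 and 9.85 in the 5 chronic C57BL/6J nicotine mice and from 9.25 to 9.91 (median 9.74) in the 6 saline mice. The groups overlapped, and mouse 2 was the highest of all 46. The difference was 0.17 (95% interval -0.08 to 0.42, limma adjusted p = 0.992), and 0.06 without that mouse. In the other 3 comparisons the differences of Gpr17 were 0.03, 0.04 and 0.06, with intervals between -0.21 and 0.31. Its 8 group means ran from 9.65 to 9.85, a span below most SDs within groups (0.12 to 0.27).

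Cspg4 had the smallest spread of the members, with a within-group SD of 0.071. Its chronic C57BL/6J nicotine mice stood at 6.73, 6.72, 6.61, 6.67 and 6.70 and the saline mice between 6.49 and 6.71 (median 6.64). These overlapped, and the difference was 0.07 (-0.03 to 0.16). It was 0.06 (-0.03 to 0.15) in chronic DBA/2J, and averaged over the strains 0.06 (SE 0.03, unadjusted p = 0.0518, limma adjusted p = 0.999). In withdrawal it was -0.04 in C57BL/6J and 0.00 in DBA/2J, where the 5 nicotine mice lay within the saline range of 6.43 to 6.65.

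Bmp4, the secreted inhibitor of differentiation, had a within-group SD of 0.24, as had Olig1, and ran from 6.92 to 7.96 over the C57BL/6J arrays. Its chronic C57BL/6J nicotine mice stood at 7.72, 6.92, 7.34, 7.47 and 7.77 and the saline mice between 6.96 and 7.96, so that the 2 groups overlapped over nearly their whole range. The 4 nicotine differences were 0.12, -0.19, -0.15 and 0.10 in chronic C57BL/6J, chronic DBA/2J, withdrawn C57BL/6J and withdrawn DBA/2J, with intervals from -0.46 to 0.40. Olig1, which acts in oligodendrocyte maturation, had differences of -0.15, 0.05, -0.25 and -0.03 in the same order. The value of -0.25 in withdrawn C57BL/6J came from 8.76 to 9.38 (median 9.21) in nicotine mice and 9.03 to 9.52 (median 9.43) in saline mice, with an interval of -0.51 to 0.02 and limma adjusted p = 1.

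The remaining contrasts also left the members without a call. Averages over strains and phases, differences between responses, and withdrawal against chronic within saline or nicotine mice gave 0 of 6 passing, against 0% of the genes tested. At an unadjusted p under 0.05 there were 0 of 6 in the averages over strains (chronic, 2.62% of all genes, withdrawal, 1.78%, and both phases, 3.4%) and in the change of the C57BL/6J response from chronic to withdrawal (2.5%). There was 1 of 6 in the strain difference of the chronic response (9.95%) and 1 in that of the withdrawal response (7.04%). Withdrawal against chronic gave 2 of 6 in C57BL/6J nicotine mice (Bmp4 at -0.29 and Olig2 at -0.24, with all 6 genes negative; 7.81% of all genes). It gave 1 in DBA/2J nicotine mice (Sox10 at 0.20; 3.76%), 1 in DBA/2J saline mice (Olig2; 4.05%) and 0 in C57BL/6J saline mice (3.74%). In the change of the DBA/2J response from chronic to withdrawal there were 2 (3.74%). The last 2 were Olig2, at 0.31, and Sox10, at 0.35 (95% interval 0.11 to 0.59). By log2 value the Sox10 change had the lowest p of these contrasts, 0.005 unadjusted and 0.98 adjusted with limma. Averaged over all 4 comparisons the nicotine differences lay between -0.09 for Olig1 and 0.07 for Gpr17.

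Pdgfra, the growth factor receptor that marks the precursors, could be followed only through the S-scores of the authors' deposited table. An S-score is a signed, standardised difference between 1 nicotine mouse and the matching saline group, and it is no fold change. In withdrawn C57BL/6J the scores of Pdgfra were -0.07, -1.04, -1.36, -1.11, -0.27 and -1.37. All 6 were negative, with a mean of -0.87 (SE 0.69, limma adjusted p = 1). In withdrawn DBA/2J they were 2.01, -0.11, 0.80, 1.30 and 0.40, of which 4 of 5 were positive, with a mean of 0.88 (SE 0.73, adjusted p = 0.906). The strain difference of these means was 1.75 (95% interval -0.34 to 3.83, adjusted p = 0.74). In chronic C57BL/6J the scores of Pdgfra were 0.58, 0.04, -0.25, -0.42 and -1.05, centred near 0. Chronic DBA/2J held the widest spread, with scores of 3.17, 1.62, 0.53, -1.65, 1.08 and -2.65, and a mean of 0.35. Of the 25801 genes scored 0% passed in any of the 4 comparisons. Mice of a group share 1 saline reference, and the fit entered the number of saline mice into the error. Of 12 genes of fibroblasts and meninges, which also make Pdgfra, 5 had positive mean scores in withdrawn C57BL/6J (median -0.20) and 10 in withdrawn DBA/2J (median 1.35). In the chronic groups 11 of 12 were positive in C57BL/6J (median 1.49) and 0 of 12 in DBA/2J (median -1.13). The Pdgfra means there, -0.22 (SE 0.73) and 0.35 (SE 0.69), were both smaller than their SE and so give no clear sign. The part of these genes in the Pdgfra scores was not tested.

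**Figure D3:**
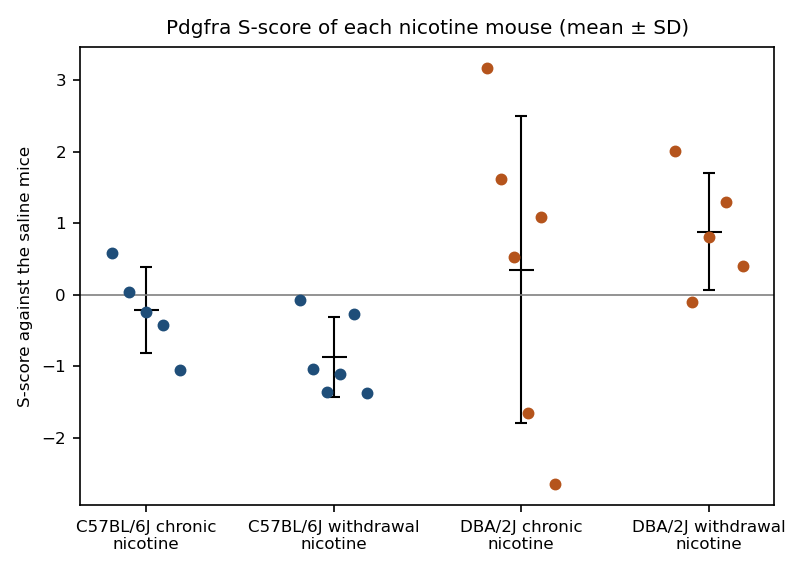
S-score of Pdgfra in each of the 22 nicotine mice against the saline mice of their strain and phase, by group on the x axis, with bars for mean ± SD. All 6 withdrawn C57BL/6J mice lie below 0 and 4 of 5 withdrawn DBA/2J mice above it, while chronic DBA/2J mice range from -2.65 to 3.17.

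How the members varied together was asked of the deviations of each mouse from its group mean, with permutations of mice within groups. Of 21 relations, 15 between log2 values over 46 mice and 6 of Pdgfra with the others by S-score over 22 mice, none passed the adjustment. Pearson's r ran from -0.11 to 0.34. The highest were Olig2 with Sox10 (r = 0.34, rho = 0.29, permutation p = 0.0269, adjusted p = 0.565, and r = 0.36 without the 2 farthest mice) and Gpr17 with Sox10 (r = 0.32, rho = 0.30, permutation p = 0.0556, adjusted p = 0.583, and 0.24). Olig1 and Olig2, neighbours on the chromosome, gave r = -0.02.

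The members were then set against the mean of tested markers of 9 cell types or stages, members left out, a family of 54 relations added after the data were seen, of which 10 passed. Sox10 followed the myelin genes (r = 0.73, rho = 0.70, permutation p = 1e-05, the smallest they can give, adjusted p = 0.00018), with r = 0.65 without the 2 farthest mice, 0.88 within C57BL/6J and 0.47 within DBA/2J. It also followed the committed genes (r = 0.59, rho = 0.57, permutation p = 0.00011, adjusted p = 0.00148, r = 0.51 without the 2 farthest). With the other precursor genes r was 0.42 (rho = 0.43, permutation p = 0.00889, adjusted p = 0.048, and 0.37), and with cortical neurons 0.42 (rho = 0.47, permutation p = 0.00818, adjusted p = 0.048, and 0.38). Within C57BL/6J and DBA/2J, r of Sox10 was 0.76 and 0.23 with the committed genes. It was 0.58 and 0.20 with the other precursor genes and 0.60 and 0.24 with cortical neurons, and the strain differences were not tested.

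Gpr17 followed the committed genes (r = 0.52, rho = 0.53, permutation p = 0.00043, adjusted p = 0.00387, and 0.46 without the 2 farthest mice) and the other precursor genes (r = 0.43, rho = 0.39, permutation p = 0.00675, adjusted p = 0.0456, and 0.37), the latter no longer past the threshold by rank (adjusted permutation p of rho 0.0622). The first of these was 0.55 without Lims2, the overlapping gene, whose own r with Gpr17 was 0.09. With myelin genes Gpr17 gave r = 0.14 (adjusted p = 0.647). Within strains the values of Gpr17 with the other precursor genes were 0.69 in C57BL/6J and 0.11 in DBA/2J. With the committed genes they were 0.63 and 0.36, and the strain differences were not tested.

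Bmp4 passed the threshold with lists outside the lineage. Its deviations followed those of fibroblast and meningeal genes (r = 0.74, rho = 0.81, permutation p = 1e-05, adjusted p = 0.00018, and 0.75 without the 2 farthest mice; 0.66 in C57BL/6J and 0.86 in DBA/2J). They also followed mural cell genes (r = 0.67, rho = 0.69, permutation p = 1e-05, adjusted p = 0.00018, and 0.65) and astrocyte genes (r = 0.56, rho = 0.59, permutation p = 0.00024, adjusted p = 0.00259, and 0.51). Against striatal spiny neuron genes they ran the opposite way (r = -0.54, rho = -0.45, permutation p = 0.00115, adjusted p = 0.00887, and -0.43). With the other precursor genes r was 0.11 (adjusted p = 0.744), or -0.13 in C57BL/6J and 0.44 in DBA/2J. With the committed genes it was 0.32 (adjusted p = 0.161), or 0.14 and 0.69. Cspg4, Olig1 and Olig2 had no relation past the threshold, the nearest being Olig2 with myelin genes (r = 0.41, adjusted p = 0.061). With each array centred on its median, which was given no test, r of Cspg4 went from 0.12 to 0.49 with the other precursor genes, from 0.03 to 0.33 with the committed genes and from 0.41 to 0.63 with microglia. That of Olig2 went from 0.41 to 0.52 with the committed genes and from 0.36 to 0.50 with microglia. With the other precursor genes r rose from 0.29 to 0.45 for Olig2, from 0.17 to 0.33 for Olig1 and from 0.42 to 0.52 for Sox10. The rise was general: r of the other members with these lists rose too, apart from Bmp4 with the committed genes (0.32 to 0.31).

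**Figure D4:**
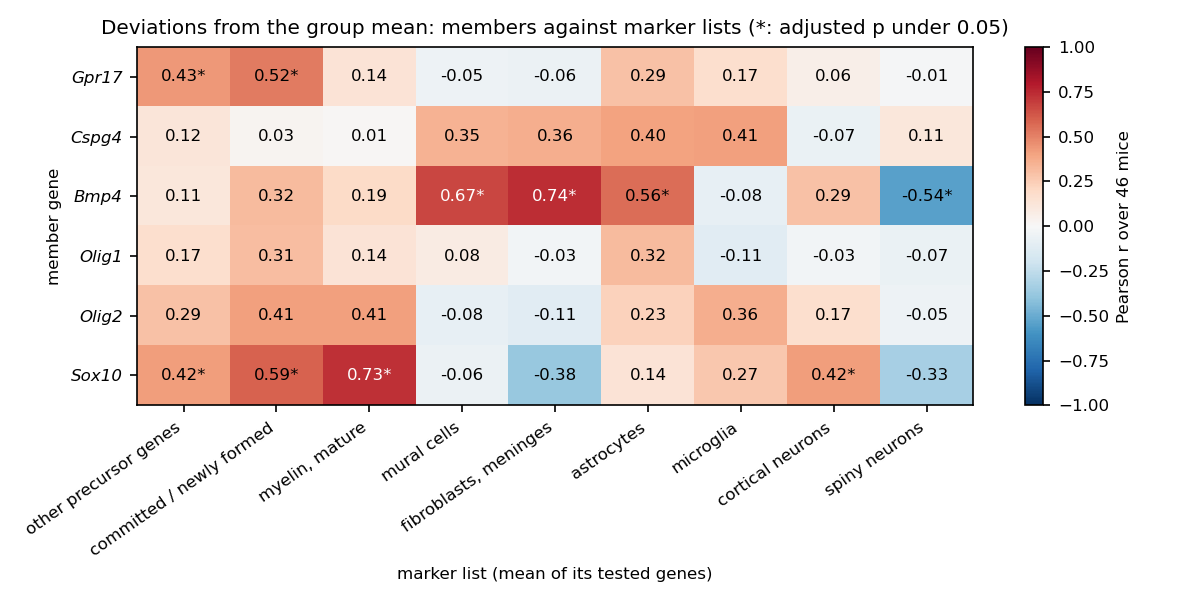
Pearson's r over 46 mice between each member (rows) and the mean of each marker list (columns), both as deviations from the group mean, with an asterisk at adjusted p under 0.05. Sox10 and Gpr17 hold their marked values mainly in the lineage columns and Bmp4 in the columns of other tissue, with 0.74 for fibroblasts and meninges.

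**Figure D5:**
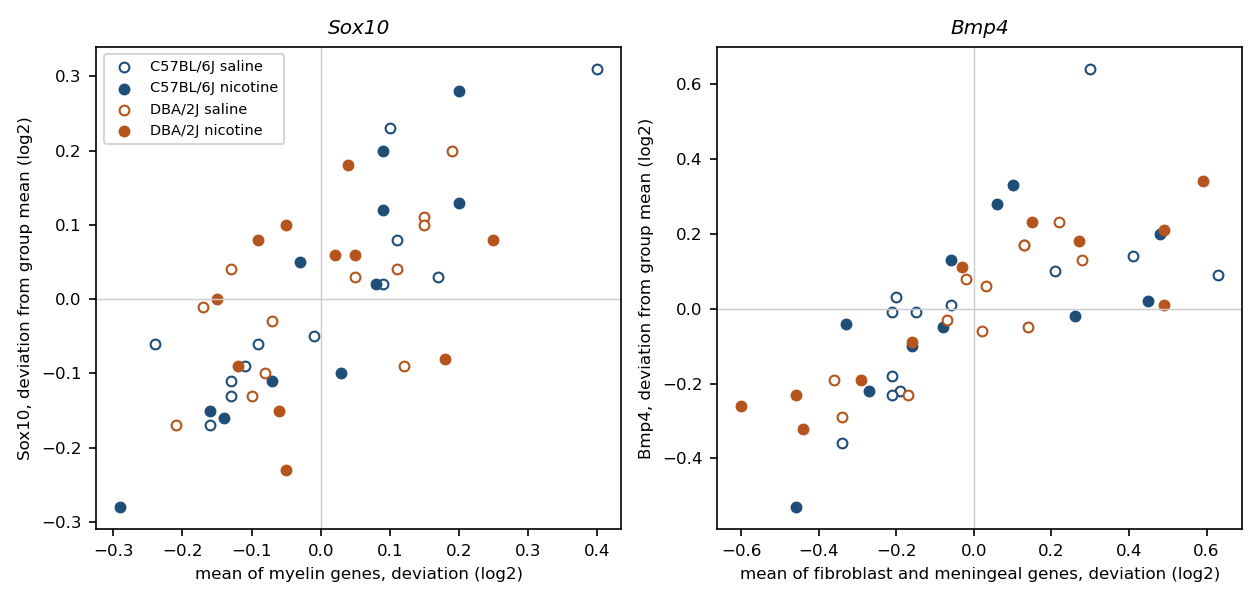
Deviation from the group mean (log2) of Sox10 against the mean of the myelin genes (left) and of Bmp4 against the mean of fibroblast and meningeal genes (right), 1 point per mouse (open saline, filled nicotine, blue C57BL/6J, orange DBA/2J). Over all mice r was 0.73 on the left (0.88 in C57BL/6J and 0.47 in DBA/2J) and 0.74 on the right (0.66 and 0.86).

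Among the 9595 other tested genes, those most alike to each member over the 46 mice were named by the highest r of these deviations, as a description without a test, since all values of a mouse share 1 array. For Sox10 they were the myelin basic protein gene Mbp (0.78), the fatty acid hydroxylase Fa2h (0.76), Phldb1 (0.76), Myo1d (0.75) and Plekhh1 (0.75), and 11 of its 50 most alike genes were on the myelin list. For Bmp4 they were Bgn, a matrix proteoglycan (0.81), Osr1 (0.81), Dab2 (0.80) and the transporters Slc22a8 (0.79) and Slc47a1 (0.79). For Gpr17 they were Sh3rf3 (0.74), Usp31 (0.74), Xbp1, a factor of the unfolded protein response (0.71), Rbm41 (0.71) and the chaperone Dnajc3 (0.69). Cspg4 had Stat3 (0.63), the complement genes C4a (0.57) and C4b (0.55), Rapgef3 (0.57) and LOC101056386 (0.56), and C4a and C4b are near-identical copies whose values may not be separate. Olig1 had Rhog (0.72), Borcs6 (0.70), Hgh1 (0.67), Ccdc124 (0.66) and Fbxl15 (0.65), and Olig2 had Gm8399 (0.72), Scd3 (0.65), Map7d2 (0.62), Trir (0.62) and Epb41l3 (0.61). None of these 10 genes was on any of the 13 lists. The highest r of a member with another member was 0.34.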

How the data were processed

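The authors deposited 1 log2 value per array and transcript cluster for 46 arrays, summarised and scaled by a method not given in the sources used here (48088 features, 6732 of them controls, values from 2.58 to 19.9). Their deposited comparisons hold score values, per the file headers S-scores: standardised differences of 22 nicotine mice, each from the matching saline group, made with software not stated in the labels. All sample columns were mapped. Features with 1 gene symbol were kept, 1 per gene (the highest mean), where that feature lay above the 50th percentile of the array's features other than controls in 5 or more arrays. limma 3.58.1 (R 4.3.3, data.table version 1.17.8) was fitted with 1 coefficient per group, 18 contrasts, 38 residual degrees of freedom and two-sided tests, with Benjamini-Hochberg adjustment per contrast over all 9596 genes and a threshold of 0.05. S-scores of 25801 genes were tested with limma, saline mice assumed to vary like nicotine mice. The last contrast, the strain difference of the response over both phases, was added after the data were seen. Relations used 100000 permutations of mice within groups. The scripts were tested on simulated data. Figures used matplotlib in Python.

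The members, the 13 gene lists (223 entries, 221 found, 132 tested) and the tests were chosen with earlier results of these data known. For each member the 5 most alike genes were named. Of each list, up to 4 genes with the largest differences among those past the threshold were named for the strain contrast, and up to 4 with the smallest p elsewhere, and some genes that this rule names are not reported here. Separate mice are separate samples, and the number of arrays limits the precision. Alternatives were other filters, scalings, fits, covariates for tissue genes, a block for mouse number, and fits that omit 1 mouse at a time. Mouse numbers did not pair the mice.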

Additional observations from a re-analysis of the deposited data

Results flagged for a closer look

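Of 52 groups of values checked, 5 held a mouse far from the others of its group by Dixon's test, and chance gives about 1 in 20. Gpr17 was 10.26 in C57BL/6J chronic nicotine mouse 2, with the next at 9.85. Cspg4 was 6.43 in DBA/2J withdrawal saline mouse 1, with the next at 6.57. Olig1 was 8.74 in DBA/2J chronic saline mouse 4, with the next at 9.20. Olig2 was 9.61 in C57BL/6J withdrawal saline mouse 6, with the next at 9.26, and without that mouse its strain difference among saline mice was -0.31. Sox10 was 8.45 in C57BL/6J chronic saline mouse 4, with the next at 8.17, and without it the strain difference was -0.29. In both cases the strain call was kept.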

How the results depend on the processing

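The strain calls among saline mice held for Olig2 in 13 of 13 other settings (-0.40 to -0.23) and for Sox10 in 12 of 12 (-0.37 to -0.16), and in all 24 repeats that each left out 1 saline mouse (-0.39 to -0.31 for Olig2 and -0.34 to -0.29 for Sox10). Sox10 among nicotine mice held in 12 of 12 settings (-0.42 to -0.25) and 22 of 22 repeats (-0.44 to -0.37). The count of members past the threshold was 2 among saline mice and 1 among nicotine mice. With the filter at the 75th percentile it was 1 and 0, because Sox10 did not enter that filter. With the groups compared alone it was 2 among nicotine mice, since Olig2 passed. Leaving out 1 mouse gave 2 to 3 among saline mice and 1 among nicotine mice. Of the 15 contrasts of nicotine or pump removal, the 101 member values gave 0 calls among 1152 values under other settings and 0 among 1766 repeats without 1 mouse, while 169 uncalled values changed sign.

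Mouse numbers did not pair the mice: same-numbered mice deviated together with a mean r of 0.00031, and in 0 of 28 pairs of groups did every numbered pair exceed 0.1. With mouse number as a block the counts stayed at 2 among saline mice and 1 among nicotine mice, and Cspg4 stood at adjusted p = 0.0656. With myelin and cortical means removed, r of Olig2 with Sox10 was 0.066 and that of Bmp4 with Sox10 was -0.359, and with arrays centred on the median r of Cspg4 with Olig1 was 0.175, and that of Cspg4 with the other precursor genes 0.49 in place of 0.12. The cause was not tested.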
